A study of Mus musculus with 18 samples.

Results

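Whole-genome bisulfite sequencing (WGBS) of CD11b+ (myeloid) and CD4+ (T helper) cells from mouse spleen was examined at 10 genes of the transforming growth factor-beta (TGF-beta) pathway. They were the ligand gene Tgfb1, the receptor genes Tgfbr1 and Tgfbr2, the receptor-activated SMADs Smad2 and Smad3, their partner Smad4, the inhibitory SMADs Smad6 and Smad7, and the nuclear repressors Ski and Skil. A listed region was assigned to a gene where it overlapped the gene body or the 5 kb on each side in the mouse genome build mm10, and the choice used no methylation value. This gave 290 of the 411770 regions listed for CD11b+ cells and 331 of the 553467 regions listed for CD4+ cells.

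TGF-beta binds the receptor encoded by Tgfbr2, which recruits and phosphorylates the receptor encoded by Tgfbr1, and the activated pair phosphorylates SMAD2 and SMAD3. These join SMAD4 and enter the nucleus, where SKI and SKIL (also called SnoN) can repress the complex, while SMAD6 and SMAD7 act at the receptors as feedback inhibitors. In T cells the pathway is known for restraining activation and for the induction of Foxp3 in regulatory T cells, and in myeloid cells for dampening inflammatory responses. DNMT3A is a methyltransferase that places new methyl groups on CpG cytosines.

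Spleens came from young adult mice matched for sex and age. For each cell type, 4 mice were Dnmt3a+/+ (WT) and 4 carried the heterozygous mutation, which the labels write Dnmt3aR878/+ and which is written R878H/+ here. The mutant allele was expressed in hematopoietic cells through the Vav1-iCre transgene. For bone marrow transplants the study counted both Cre-positive Dnmt3a+/+ mice and Cre-negative carriers of the floxed mutant allele as Dnmt3a+/+, and which of them gave the WGBS controls is not stated. CD11b+ cells of R878H/+ mice had 6 entries for 4 mice, with replicates 3 and 4 entered more than once, and the other groups had 4 entries each. The sample titles also carry S numbers of a lower and a higher series, whose meaning is not stated. In CD4+ cells all R878H/+ entries are of the higher series, and all but 1 of the WT entries are of the lower. Genotype and series can therefore hardly be told apart in CD4+ cells. In CD11b+ cells only the repeat entries of R878H/+ replicates 3 and 4 are of the higher series. Both fractions were enriched on magnetic columns and measured in bulk, so a shift in the kinds of cells within a fraction and a change of methylation per cell cannot be told apart. The deposited tables hold 1 authors' mean per genotype and region, with no value per mouse and no read depth. No mean below therefore has an SD, and no difference could be tested across mice. A difference is the R878H/+ mean minus the WT mean in percentage points.

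The labelled cell types were checked at marker genes in WT cells, over regions listed in both cell types. At 10 myeloid genes the median level was 76.3% in CD11b+ and 87.1% in CD4+ cells, with the CD4+ level higher at 9 of the 10. At 10 T cell genes it was 84.1% in CD11b+ and 70.9% in CD4+ cells, with the CD4+ level lower at 7. At 4 B cell genes it was 77.9% in CD11b+ and 82.7% in CD4+ cells.

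The stretches below carry the differences that the results turn on, and show how few CpGs the regions of loss hold beside the region of gain. They are the plus strand of mm10 as RefSeq gives it (GRCm38.p6), 5′ to 3′, with each CpG in capitals. Of a region longer than 300 bases, the 300 with the most CpGs are shown. The first 3 come from introns of Smad6 and Ski that were less methylated in R878H/+ cells, at chr9:63958388-63958687, chr9:63970235-63970534 and chr4:155218846-155219145.
Smad6 intron 3, distal: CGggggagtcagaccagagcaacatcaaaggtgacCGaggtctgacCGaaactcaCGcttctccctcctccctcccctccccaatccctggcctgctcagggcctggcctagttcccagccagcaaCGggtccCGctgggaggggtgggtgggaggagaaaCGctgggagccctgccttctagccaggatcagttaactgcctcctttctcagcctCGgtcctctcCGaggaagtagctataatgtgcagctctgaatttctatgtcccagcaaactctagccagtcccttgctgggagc
Smad6 intron 3, central: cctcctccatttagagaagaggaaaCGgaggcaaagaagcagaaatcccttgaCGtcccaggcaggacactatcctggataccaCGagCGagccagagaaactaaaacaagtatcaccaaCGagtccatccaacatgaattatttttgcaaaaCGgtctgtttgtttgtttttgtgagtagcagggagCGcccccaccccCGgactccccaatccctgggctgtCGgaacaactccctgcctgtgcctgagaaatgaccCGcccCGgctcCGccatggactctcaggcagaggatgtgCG
Ski intron 1: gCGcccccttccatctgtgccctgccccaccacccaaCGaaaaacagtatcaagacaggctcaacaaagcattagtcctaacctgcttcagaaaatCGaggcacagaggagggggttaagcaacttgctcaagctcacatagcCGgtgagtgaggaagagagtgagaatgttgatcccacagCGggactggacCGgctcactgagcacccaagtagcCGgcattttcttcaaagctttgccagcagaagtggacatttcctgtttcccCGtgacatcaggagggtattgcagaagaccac
They hold 9, 13 and 8 CpGs. The next comes from coding exon 1 of Ski, at chr4:155221712-155222011, was more methylated in CD11b+ cells of R878H/+ mice, and holds 32 CpGs.
Ski exon 1: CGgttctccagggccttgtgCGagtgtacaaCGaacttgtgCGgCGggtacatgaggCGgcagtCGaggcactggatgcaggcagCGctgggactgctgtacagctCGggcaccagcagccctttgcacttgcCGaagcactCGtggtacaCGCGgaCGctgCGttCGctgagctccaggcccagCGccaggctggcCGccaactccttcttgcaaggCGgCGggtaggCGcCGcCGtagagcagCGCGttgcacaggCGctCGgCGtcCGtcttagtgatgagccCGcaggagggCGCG
The next pair lies outside Tgfb1, upstream of its start at chr7:25686578-25686667 and beyond its 3′ end at chr7:25707634-25707933, with 6 and 10 CpGs.
Tgfb1 upstream: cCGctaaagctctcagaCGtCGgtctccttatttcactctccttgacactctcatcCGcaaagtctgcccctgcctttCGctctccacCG
Tgfb1 3′ flank: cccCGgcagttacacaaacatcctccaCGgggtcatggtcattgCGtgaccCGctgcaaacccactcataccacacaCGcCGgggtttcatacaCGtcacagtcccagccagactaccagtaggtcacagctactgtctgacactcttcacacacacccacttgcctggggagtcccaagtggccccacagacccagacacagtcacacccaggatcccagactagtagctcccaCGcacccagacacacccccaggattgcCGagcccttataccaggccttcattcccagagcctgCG
The last is a short CpG repeat at chr9:116084942-116084968, inside the Tgfbr2 gene on a UTR exon of a transcript other than the principal one, with 8 CpGs.
Tgfbr2 repeat: gCGCGtgCGCGcaCGcaCGcaCGcaCG

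Across the 10 genes, methylation was lower in R878H/+ than in WT cells at nearly every listed region, by more than at listed regions of the whole genome. In CD11b+ cells the R878H/+ mean was below the WT mean in 281 of 290 regions (96.9%, against 93.4% of all listed regions). In CD4+ cells it was below in 319 of 331 (96.4%, against 95.5%). These shares stood close to their backgrounds, and the sizes of the differences stood further away. The median level over the regions was 85.8% in WT and 72.1% in R878H/+ CD11b+ cells, and the median difference was -10.4 points (quartiles -18.6 and -6.01), against -6.55 points over all listed regions. In CD4+ cells the median levels were 87.9% and 75.6%, and the median difference was -8.81 points (quartiles -15.1 and -4.98), against -6.85 points over all. Regions with a loss above 20 points numbered 57 in CD11b+ cells (19.7%, against 7.00% of all listed regions) and 45 in CD4+ cells (13.6%, against 6.23%).

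Differentially methylated regions (DMRs) were taken with the criteria of the study, namely more than 10 CpGs, a difference above 20 points in size and a q-value of the region caller below 0.05. The tables count the CpG cytosines of both strands, so more than 10 CpGs means more than 10 cytosines. Of the 136 regions of the 10 genes that were long enough in CD11b+ cells, 4 were hypomethylated DMRs (2.94%, against 1.38% of all such regions) and 1 was hypermethylated (0.735%, against 0.0302%). Of 157 such regions in CD4+ cells, 4 were hypomethylated DMRs (2.55%, against 1.49%) and 0 were hypermethylated (against 0.00121%). With 4 calls in each cell type, 1 region more or fewer moves these shares widely. At least 1 hypomethylated DMR lay at 3 of the 10 genes in CD11b+ cells (Tgfbr2, Smad6 and Ski) and at 3 in CD4+ cells (Tgfb1, Smad4 and Smad6), while 8.89% and 11.8% of protein-coding genes with a long enough region held one. Genes with more regions had more chances of a call. Among genes with a similar number of regions (between 50% and 200% of that of the gene), the share with a DMR in CD11b+ cells was 25.4% for Tgfbr2, 19.8% for Smad6 and 23.3% for Ski. In CD4+ cells it was 10.1% for Tgfb1, 16.0% for Smad4 and 27.6% for Smad6.

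**Figure D1:**
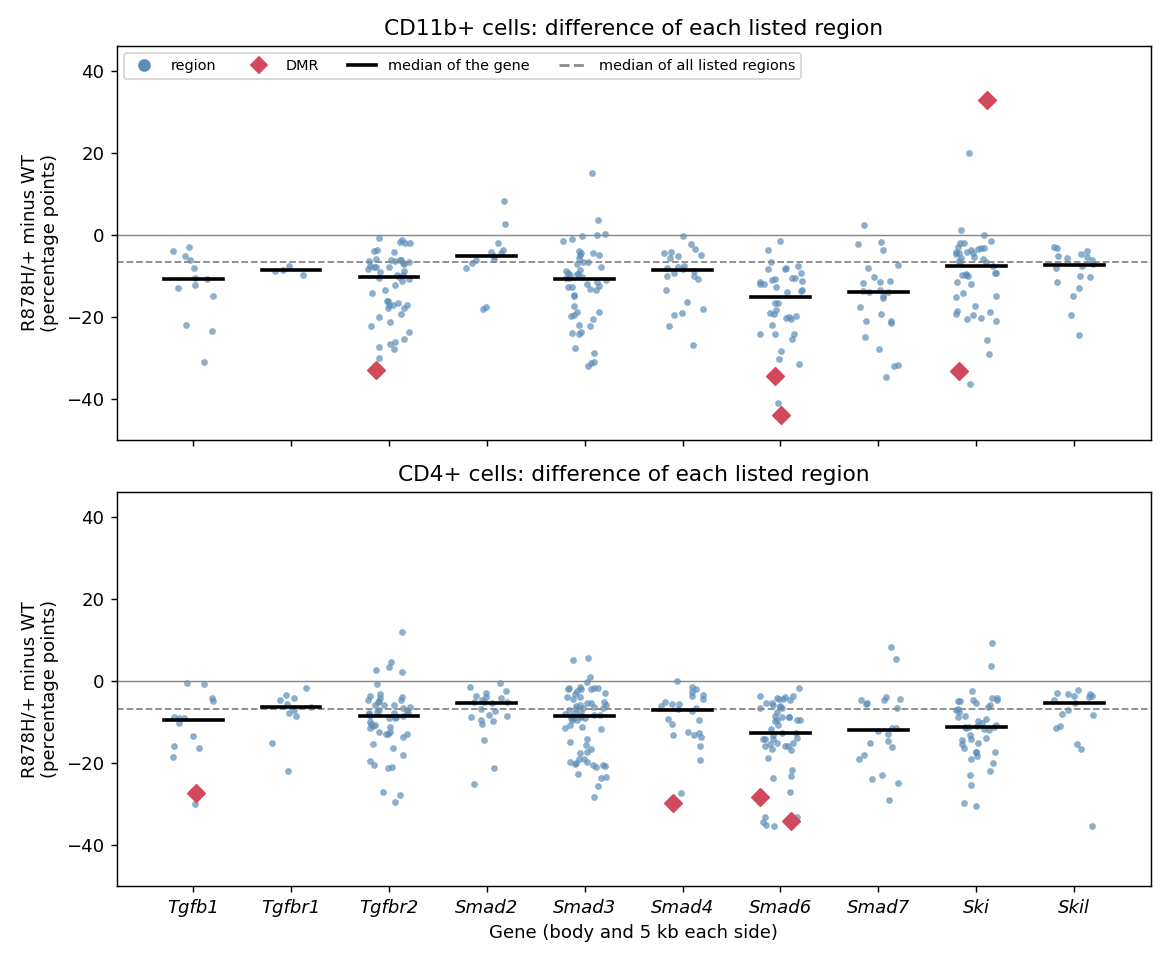
Difference of the authors' group means (R878H/+ minus WT, percentage points) for each listed region of the 10 genes, CD11b+ cells above and CD4+ cells below. Blue points are regions, red diamonds are DMRs, black bars are gene medians and the dashed line is the median of all listed regions (-6.55 and -6.85 points); Smad6 has the lowest gene median in both panels (-15.2 and -12.8 points), and 1 diamond, in Ski, lies above 0.

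The ligand gene Tgfb1 (chr7:25687002-25705077, plus strand, ENSMUSG00000002603.15) encodes the main TGF-beta of immune cells. All 13 of its regions in CD11b+ cells and all 14 in CD4+ cells were lower in R878H/+ mice, with median differences of -10.8 and -9.57 points. Over the gene body alone the medians were -5.69 and -6.46 points, smaller in size than those of all listed regions (-6.55 and -6.85). The differences were unevenly placed, larger on both flanks than over the exons. The 3 regions of the 3′ flank had a median level of 36.0% in WT and 12.8% in R878H/+ CD11b+ cells, while the 5 regions on exons had a median difference of -6.08 points. In CD4+ cells the 4 regions of the 3′ flank had median levels of 69.3% and 47.6%, and 1 of them was a DMR.

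The Tgfb1 DMR, at chr7:25707273-25708608, lay beyond the 3′ end of the gene, and its mean was 44.0% in WT and 16.8% in R878H/+ CD4+ cells (-27.2 points). The CD11b+ region that overlapped it most, chr7:25707870-25709015, went from 36.0% to 14.0% (-22.0 points) without a q-value below 0.05. Closer to the gene, chr7:25705568-25706260 held the largest loss of Tgfb1 in CD11b+ cells, from 43.8% to 12.8% (-31.0 points), and chr7:25705919-25706895 that in CD4+ cells, from 59.3% to 29.3% (-30.01 points). None of these was a DMR apart from the first, although all lost more than 20 points.

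Upstream of the Tgfb1 start, methylation stepped down towards the gene in both cell types. The region chr7:25686175-25686544 was at 55.1% in WT and 42.1% in R878H/+ CD11b+ cells. Next to it, chr7:25686579-25686666, centred 380 bp before the start, was at 31.1% in WT and 7.65% in R878H/+ CD11b+ cells (-23.4 points). In CD4+ cells the nearest region, chr7:25686598-25686775, was already at 5.03% in WT and at 0.25% in R878H/+ cells (-4.78 points). The CD4+ region thus had little methylation to lose, and the R878H/+ level of the CD11b+ region stood near the WT level of the CD4+ one. These regions shared only 69 bp (38.8% of the longer one), and the CD4+ region reached further towards the start. Position and cell type therefore cannot be told apart in this contrast. The CD11b+ loss had no q-value below 0.05. The neighbouring gene B9d2 overlapped 6 of the upstream regions, 3 in each cell type.

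**Figure D2:**
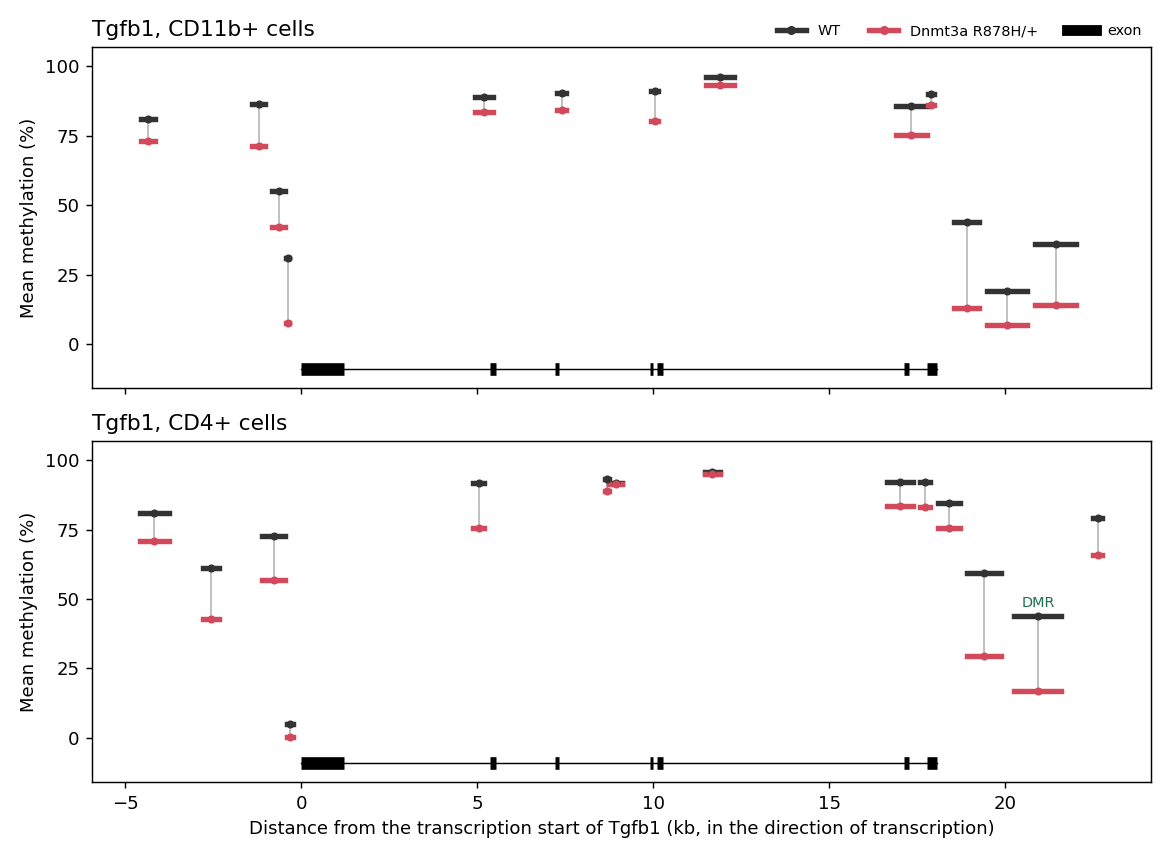
Mean methylation (percent) of each listed region at Tgfb1 against the distance from its transcription start (kb, in the direction of transcription), CD11b+ cells above and CD4+ cells below. Black and red bars are the WT and R878H/+ means over the width of a region, grey lines join them, and black boxes mark exons; in CD11b+ cells the levels separate most at the last region before the start and on the 3′ flank, and in CD4+ cells on the 3′ flank, where the DMR went from 44.0% to 16.8%.

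Of the receptors, Tgfbr2 (chr9:116084293-116175360, minus strand, ENSMUSG00000032440.13), which binds the ligand, had 53 regions in each cell type. In CD11b+ cells all 53 were lower in R878H/+ mice, with a median difference of -10.3 points, and 11 lost more than 20 points. In CD4+ cells 48 were lower and 5 higher, with a median of -8.52 points and 6 losses above 20 points. The DMR in CD11b+ cells was the CpG repeat shown above, 25 bp long (chr9:116084943-116084967), at 53.8% in WT and 20.9% in R878H/+ cells (-32.9 points). Its 12 counted cytosines lie in a simple repeat. The CD4+ region over the same bases, chr9:116084826-116084968, was at 76.0% in WT and 59.5% in R878H/+ cells (-16.4 points).

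Tgfbr2 also held the highest gain of the 10 genes in CD4+ cells. In intron 1, chr9:116171882-116172635 was at 47.7% in WT and 59.7% in R878H/+ cells (+12.0 points), without a q-value below 0.05, while the overlapping CD11b+ region went the other way, from 85.4% to 78.5% (-6.88 points). The largest CD4+ loss, at chr9:116084221-116084761, was from 61.3% to 31.7% (-29.5 points). Near the start of the gene, chr9:116173785-116174465 was weakly methylated in CD11b+ cells, at 11.5% in WT and 7.85% in R878H/+ cells.

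Tgfbr1 (chr4:47353222-47414931, plus strand, ENSMUSG00000007613.15), the signalling receptor, had few listed regions for its length of 61.7 kb. The 4 regions in CD11b+ cells all lay in the flanks, with a median difference of -8.61 points and no loss above 20 points. In CD4+ cells 11 regions had a median of -6.32 points, smaller in size than that of all listed regions. The largest CD4+ loss was upstream, at chr4:47349557-47350143, from 82.0% to 60.1% (-22.0 points), where the overlapping CD11b+ region went from 55.6% to 45.9% (-9.70 points). The WT level there was lower in CD11b+ than in CD4+ cells.

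The receptor-activated SMADs differed from each other in size of loss. Smad3 (chr9:63646767-63757994, minus strand, ENSMUSG00000032402.12) had a median level of 85.0% in WT and 63.5% in R878H/+ CD11b+ cells over 52 regions, with a median difference of -10.8 points and 11 losses above 20 points. In CD4+ cells its 66 regions had a median of -8.47 points and 10 losses above 20 points. All of those losses, in both cell types, lay in intron 1, and 0 was a DMR. Over the intron 1 regions the median was -12.6 points in CD11b+ cells (38 regions) and -11.0 points in CD4+ cells (46 regions), against -8.76 and -5.25 points on exons (6 and 7 regions).

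The largest Smad3 loss in CD11b+ cells, at chr9:63742975-63743488 near an alternative start, was from 87.4% to 55.4% (-32.0 points), and the overlapping CD4+ region went from 82.2% to 73.8% (-8.40 points). The largest in CD4+ cells, at chr9:63697381-63698261, was from 80.9% to 52.6% (-28.3 points). A gain stood among these losses: chr9:63740286-63740670 was at 25.2% in WT and 40.2% in R878H/+ CD11b+ cells (+15.0 points), and the CD4+ region over it went from 19.3% to 24.96% (+5.62 points). Neither had a q-value below 0.05, and the direction was the same in both cell types.

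Smad2 (chr18:76241580-76310963, plus strand, ENSMUSG00000024563.16), the other receptor-activated SMAD, had the smallest median difference of the 10 genes in CD11b+ cells, -5.10 points over 13 regions, with 0 losses above 20 points. In CD4+ cells its 23 regions had a median of -5.28 points, equal to that of Skil. Both medians were smaller in size than those of all listed regions. Larger differences were found in intron 1, where chr18:76244443-76245108 was at 71.8% in WT and 46.8% in R878H/+ CD4+ cells (-25.05 points) and the overlapping CD11b+ region at 45.3% and 27.7% (-17.6 points). The largest CD11b+ loss, at chr18:76259641-76260092, was from 33.7% to 15.7% (-18.1 points), and the highest gain, at chr18:76248776-76248954, from 73.6% to 81.8% (+8.20 points). The CD4+ region over that gain, chr18:76248559-76248954, went the other way, from 80.9% to 71.3% (-9.53 points).

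Smad4 (chr18:73639009-73703780, minus strand, ENSMUSG00000024515.13), the partner of the activated SMADs, was lower in R878H/+ mice at all 24 regions in CD11b+ cells (median -8.60 points) and all 26 in CD4+ cells (median -7.01 points). Its DMR lay in intron 1 in CD4+ cells, at chr18:73693417-73694429, with 72.0% in WT and 42.2% in R878H/+ cells (-29.8 points). In CD11b+ cells the same stretch was listed as separate regions, with 28.1% and 10.1% over its first part (chr18:73693603-73693929) and 82.3% and 74.3% over the rest (chr18:73693930-73694948). The levels on either side of that boundary differed far more than the genotypes did. Just upstream of the gene, chr18:73704325-73704854 went from 49.0% to 26.7% (-22.4 points) in CD11b+ cells and chr18:73704456-73704854 from 62.5% to 35.3% (-27.2 points) in CD4+ cells, while the CD4+ region inside the start of intron 1 was near 0 in both genotypes (0.385% and 0.269%).

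The inhibitory SMADs had the lowest medians of the 10 genes in both cell types. Smad6 (chr9:63953076-64022059, minus strand, ENSMUSG00000036867.7), which blocks SMAD signalling, mainly that of the BMP branch, was lower in R878H/+ mice at all 40 regions in CD11b+ cells and all 53 in CD4+ cells. The median level was 85.8% in WT and 69.2% in R878H/+ CD11b+ cells (median difference -15.2 points) and 89.5% and 75.6% in CD4+ cells (-12.8 points). Losses above 20 points numbered 14 and 11. Among genes with a similar number of regions, 17 of 3271 (0.520%) had a lower median difference in CD11b+ cells and 37 of 2979 (1.24%) in CD4+ cells. Smad2 stood at the other end, with 81.2% of such genes lower than it in CD11b+ and 83.1% in CD4+ cells. For Skil the shares were 39.1% and 82.2%. Every other gene of the 10 ranked between Smad6 and Smad2 in both cell types. These ranks describe the genes side by side and are no test.

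Smad6 was the only one of the 10 genes with a hypomethylated DMR in both cell types, all in intron 3. At chr9:63958389-63959336 the mean was 71.6% in WT and 27.7% in R878H/+ CD11b+ cells (-43.8 points), the largest loss at the 10 genes. The CD4+ regions over it had losses of -35.1 and -16.5 points and were no DMRs. At chr9:63969749-63971057 CD11b+ cells went from 75.4% to 41.1% (-34.4 points), and the nearly identical CD4+ region, chr9:63969749-63971006, from 77.8% to 49.6% (-28.1 points). Both were DMRs, the single place at the 10 genes where the calls of the cell types met. The other CD4+ DMR, chr9:63973437-63974344, went from 67.1% to 33.0% (-34.1 points), and the CD11b+ region over it from 57.9% to 29.7% (-28.2 points) with a q-value not below 0.05. A further region, chr9:63980460-63980686, fell short of the call with its 10 cytosines, at 85.8% and 44.8% in CD11b+ cells (-41.1 points). Its CD4+ counterpart went from 84.3% to 48.9% (-35.4 points), with a q-value not below 0.05.

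The losses of Smad6 ran along intron 3, with medians of -18.3 points over 31 regions in CD11b+ cells and -13.0 points over 42 in CD4+ cells. Intron 1, close to the start, held lower WT levels and similar losses: chr9:64019075-64019760 went from 51.9% to 21.6% (-30.4 points) in CD11b+ cells and chr9:64019075-64019999 from 56.2% to 23.1% (-33.1 points) in CD4+ cells. The smallest losses in intron 3 were -1.58 points in CD11b+ and -1.75 points in CD4+ cells, at regions with WT levels of 94.9% and 95.8%.

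**Figure D3:**
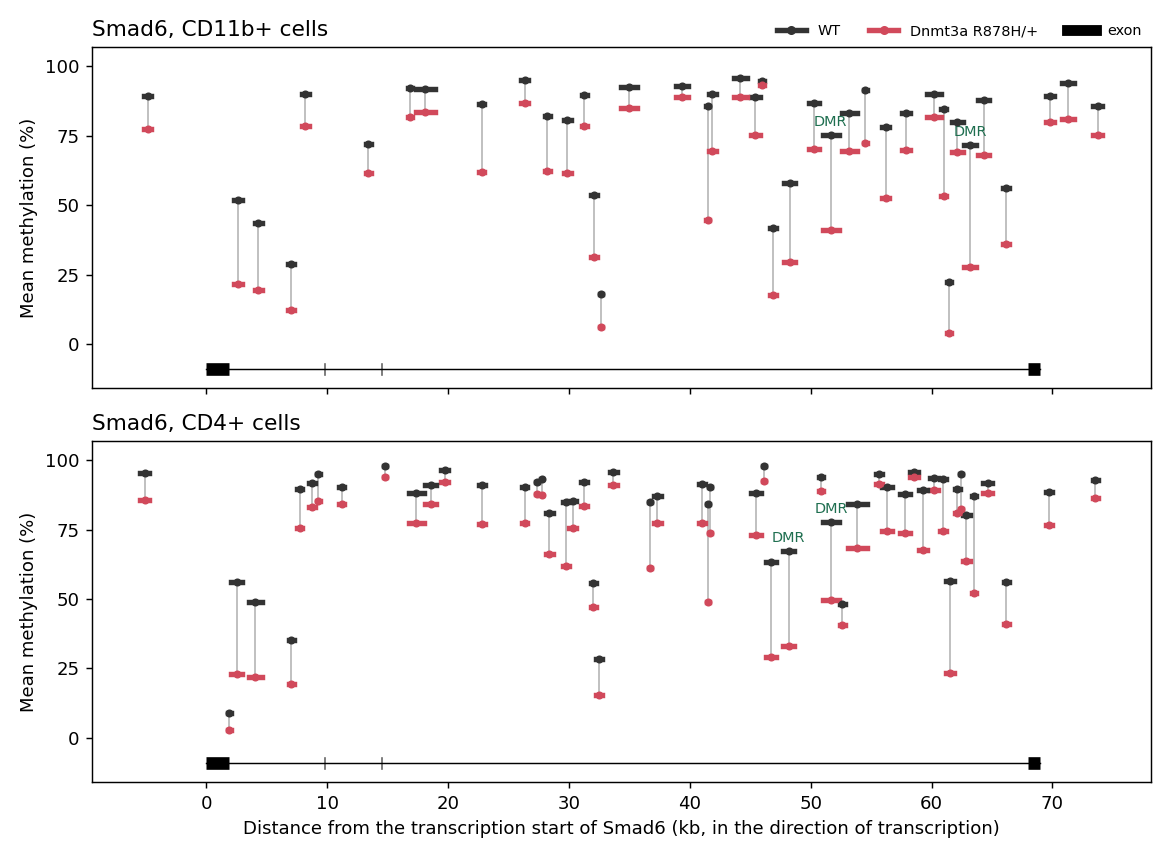
Mean methylation (percent) of each listed region at Smad6 against the distance from its transcription start (kb, in the direction of transcription), drawn as for Tgfb1. The red R878H/+ means lie below the black WT means at all 40 regions in CD11b+ and all 53 in CD4+ cells, with the labelled DMRs towards the far end of intron 3.

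Smad7 (chr18:75367529-75395935, plus strand, ENSMUSG00000025880.11), which competes for the TGF-beta receptors and recruits ubiquitin ligases to them, had a median level of 73.4% in WT and 55.5% in R878H/+ CD11b+ cells over 26 regions (median difference -14.0 points). In CD4+ cells it was 73.5% and 58.3% over 22 regions (-11.9 points). Losses above 20 points numbered 8 and 4, and 0 was a DMR. Of genes with a similar number of regions, 1.55% had a lower median in CD11b+ and 4.85% in CD4+ cells. The largest loss was in intron 3, in both cell types at the same place. There chr18:75390835-75392065 went from 60.9% to 26.3% (-34.6 points) in CD11b+ cells and chr18:75390795-75392131 from 45.9% to 17.1% (-28.9 points) in CD4+ cells. In CD4+ cells 2 regions were higher in R878H/+ mice, the higher by +8.23 points, also in intron 3 (chr18:75383575-75383728, 54.0% and 62.2%).

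Ski (chr4:155154075-155222592, minus strand, ENSMUSG00000029050.15) encodes a repressor that binds SMAD complexes on DNA. Its 47 regions in CD11b+ cells had a median difference of -7.55 points, near that of all listed regions, and its 46 in CD4+ cells one of -11.2 points. The CD11b+ median turned to +19.95 points when only the regions with more than 20 cytosines were kept, and the CD4+ one became -12.4 points. The CD11b+ value then rested only on an intron 1 region (-33.1 points) and the exon 1 regions (+32.9 and +19.95 points). In CD4+ cells 120 of 3599 genes with a similar number of regions (3.33%) had a lower median, and in CD11b+ cells 32.0% had. The listed regions are not the same in the cell types. Apart from Smad2, Ski alone of the 10 genes had a larger median loss over them in CD4+ than in CD11b+ cells. The Smad2 medians differed by less than 1 point. Over Ski regions that overlap between the cell types, the medians were nearly equal, -11.6 points in CD11b+ and -11.75 points in CD4+ cells. With an overlap of at least 50% of the longer region they were -16.9 and -15.1 points. Over overlapping regions, Tgfb1 (-12.4 and -12.9 points) and Tgfbr1 (-8.61 and -14.5 points) had the larger median loss in CD4+ cells. Whether any of these differences between cell types exceeds the spread between mice could not be tested.

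The start of Ski behaved unlike the rest of the gene in CD11b+ cells. On coding exon 1, within a CpG-dense stretch, chr4:155221676-155222066 was at 0.905% in WT and 33.9% in R878H/+ cells (+32.9 points), the hypermethylated DMR of the 10 genes. Next to it, chr4:155222067-155222421 went from 0.644% to 20.6% (+19.95 points), with a q-value below 0.05 but a difference just under the threshold. In CD4+ cells no region was listed over either, so the CD4+ level there is not known from these tables. A gain of this size in the mean of 4 mice can come from all of them or from few, and the tables do not separate these.

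Further into the gene the difference had the opposite sign. In intron 1, centred 3256 bp from the start where the exon 1 DMR was centred at 721 bp, chr4:155218847-155219824 was at 48.0% in WT and 14.9% in R878H/+ CD11b+ cells (-33.1 points), a hypomethylated DMR. The CD4+ region that overlapped it most, chr4:155219028-155219754, was at 28.7% in WT and 9.73% in R878H/+ cells (-19.0 points). The largest Ski loss in CD11b+ cells, at chr4:155173536-155174082, was from 83.1% to 46.8% (-36.3 points) and was no DMR, and the largest in CD4+ cells, at chr4:155171218-155171454, was from 78.9% to 48.5% (-30.4 points). The highest CD4+ gain, at chr4:155168912-155169385, was from 33.1% to 42.5% (+9.38 points).

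**Figure D4:**
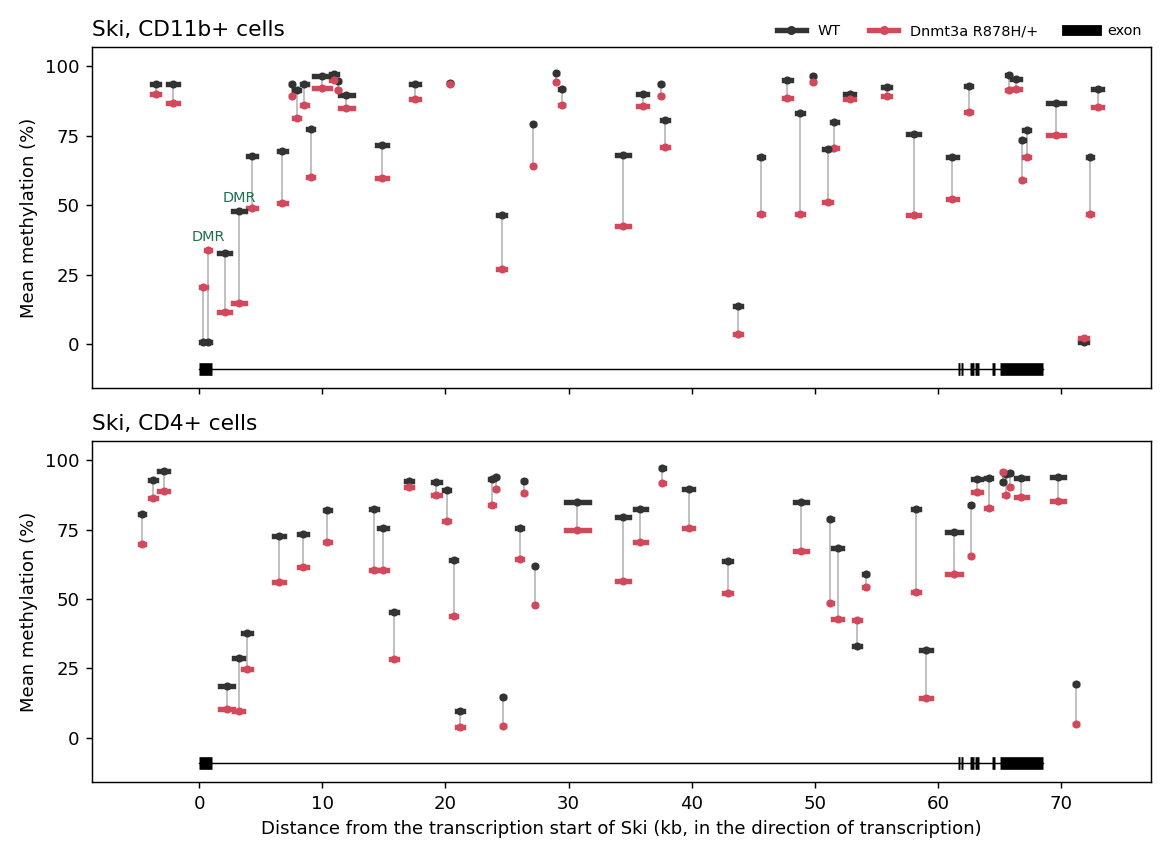
Mean methylation (percent) of each listed region at Ski against the distance from its transcription start (kb, in the direction of transcription), drawn as for Tgfb1. In CD11b+ cells the leftmost regions inside the gene are the only ones with a red mean far above the black one (33.9% and 20.6% in R878H/+ against under 1% in WT), followed by the intron 1 DMR with 48.0% in WT and 14.9% in R878H/+; no CD4+ region is listed over that exon.

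Skil (chr3:31095058-31122577, plus strand, ENSMUSG00000027660.16), the relative of Ski, was lower in R878H/+ mice at all 18 regions in CD11b+ cells (median -7.44 points) and all 17 in CD4+ cells (median -5.28 points). Only 1 region in each cell type lost more than 20 points. In CD4+ cells this was chr3:31106530-31106839 in intron 2, at 70.0% in WT and 34.7% in R878H/+ cells (-35.3 points), which missed the DMR call with its 10 cytosines. The CD11b+ region over it was at 27.4% in WT and 12.3% in R878H/+ cells (-15.0 points). The WT levels of the cell types thus stood 42.7 points apart there, more than the genotypes within either. In CD11b+ cells the largest loss was at chr3:31099600-31100260, from 76.8% to 52.4% (-24.4 points).

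Within the genes, introns carried the larger differences. In CD11b+ cells the 175 intronic regions had a median of -11.9 points (-6.58 over all intronic regions), the 40 exonic ones -7.89 (-5.98), the 32 within 1 kb of a transcription start of any transcript -9.43 (-7.32), and the 43 intergenic ones -8.75 (-6.52 over all intergenic regions). In CD4+ cells the medians were -9.82 points for 210 intronic regions (-6.82 over all), -5.80 for 41 exonic ones (-5.92), -8.70 for 30 near starts (-7.92) and -8.87 for 50 intergenic ones (-6.90). Exonic regions in CD4+ cells had nearly the same median as all exonic regions.

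The level of a region also moved with its difference. Regions with an intermediate level, from 25% to 75% as the mean of both genotypes, made up 13.1% and 24.5% of the CD11b+ regions of the 10 genes (below and above 50%), against 7.21% and 16.5% of all listed regions. Such regions lost more everywhere, by a median of -17.1 and -13.8 points over all CD11b+ regions, and by -23.9 and -18.7 points at the 10 genes. In the bin from 75% to 90% the medians were -9.42 points at the 10 genes and -7.03 over all, and above 90% they were -4.22 and -3.88. In CD4+ cells the regions from 50% to 75% had medians of -18.7 and -13.8 points, those from 25% to 50% had -15.7 and -16.1, and those above 90% had -4.48 and -4.08. Larger losses at the 10 genes than over all regions at matched levels were therefore seen in every bin in CD11b+ cells and in all but the bin from 25% to 50% in CD4+ cells. The part that the levels have in the differences of single genes was not tested.

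Regions of the 10 genes were slightly richer in CpGs and in GC than listed regions in general. The median was 1.63 CpGs per 100 bp and 49.7% GC in CD11b+ cells, against 1.5 and 46.2% over all, and 1.59 and 49.0% in CD4+ cells, against 1.42 and 45.8%. In CD11b+ cells, regions of the 10 genes with a loss above 20 points had 1.95 CpGs per 100 bp and the others 1.59. In CD4+ cells both had about the same density (1.57 and 1.59). Among all listed regions, those with a loss above 20 points had 1.9 in CD11b+ and 1.86 in CD4+ cells.

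The same places tended to lose methylation in both cell types, at the 10 genes as over the genome. In 258 pairs of overlapping regions at the 10 genes, both were lower in R878H/+ mice in 245 and the signs were opposite in 12. Over the genome, both were lower in 92.7% of such pairs. The median difference was -12.0 points in CD11b+ and -10.7 points in CD4+ cells. The CD11b+ loss was the larger in 146 of the 258 pairs, against 47.7% of such pairs over the genome. Pearson's r of the differences was 0.468 and Spearman's rho 0.482 over these pairs (0.639 and 0.593 over 279910 pairs of the genome), as a description, since neighbouring regions share libraries and chromosome context. Pairs that overlapped by at least 50% of the longer region had medians of -13.6 and -12.5 points. Of those pairs, 97.3% were lower in both cell types (94.8% over the genome), and the CD11b+ loss was the larger in 59.5% (47.1% over the genome).

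**Figure D5:**
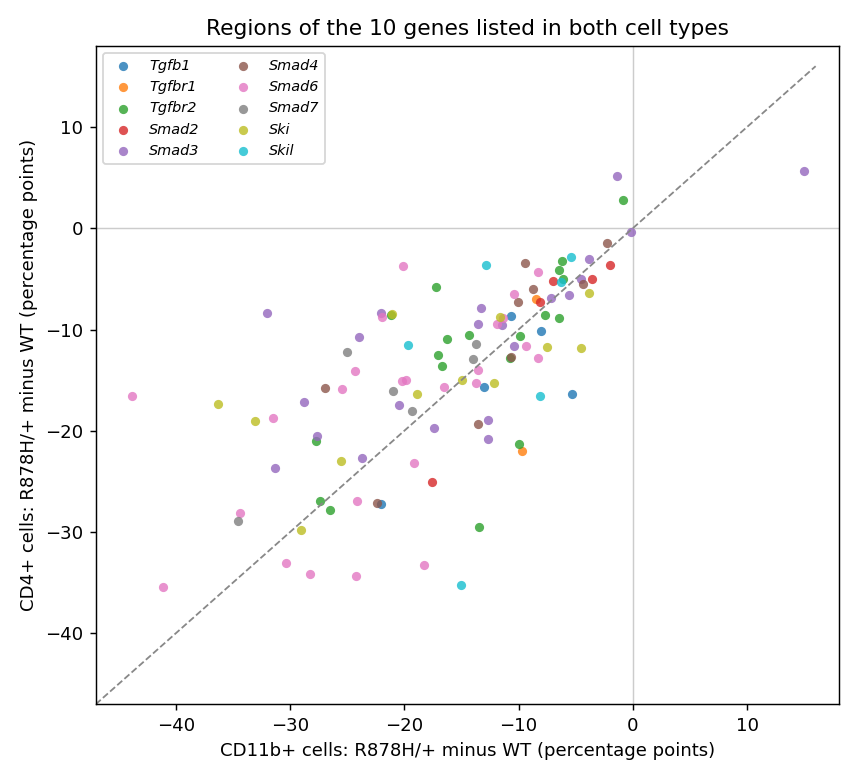
Difference (R878H/+ minus WT, percentage points) in CD4+ cells against that in CD11b+ cells for the pairs of regions at the 10 genes that overlap by at least 50% of the longer one, coloured by gene, with the dashed line where both are equal. The points run along the line with wide scatter and 97.3% of them lie below 0 on both axes; the Skil pair at -15.0 and -35.3 points lies far below the line, and the Smad3 pair at +15.0 and +5.62 points is at the upper right.

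WT cells of the lineages differed at some of these regions before the genotype entered. In 10 of the pairs with at least 50% overlap (9.01%) the WT level was more than 20 points higher in CD4+ than in CD11b+ cells, and in 2 (1.80%) it was the reverse, against 4.19% and 1.26% of such pairs over the genome. The examples given next were chosen after their values were seen. At Tgfbr2 intron 3, chr9:116121545-116121769 was at 54.0% in WT CD11b+ cells and the overlapping region at 85.8% in WT CD4+ cells, and R878H/+ cells were at 27.4% and 58.0%. The mutant level of CD4+ cells thus came near the WT level of CD11b+ cells. At the Smad3 region chr9:63744003-63744184 WT CD11b+ cells were at 63.5%, and the CD4+ region over it was at 96.0%.

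The rest of the pathway was described with a list of 56 further genes, of which 10 held a hypomethylated DMR in each cell type (17.9%, against 8.89% of genes in CD11b+ and 11.8% in CD4+ cells). The gene median was below 0 in 56 of 56 in both, and the median of the gene medians was -7.34 and -7.71 points. Regions of these genes with more than 10 cytosines were hypomethylated DMRs in 15 of 589 cases in CD11b+ cells (2.55%, against 1.38% of all such regions) and 19 of 733 in CD4+ cells (2.59%, against 1.49%). The share of genes makes no allowance for the number of regions, of which Nedd4l alone had 174 in CD11b+ cells. By role, DMRs were found in CD11b+ cells at 2 of 12 ligand and activation genes, 3 of 12 receptors, 3 of 13 adaptors, BMP-branch SMADs and cofactors, 1 of 6 ubiquitin enzymes, 0 of 3 genes of the non-SMAD arm and 1 of 10 targets. In CD4+ cells the numbers were 2, 2, 3, 1, 0 and 2.

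Genes with a DMR in both cell types were 6 of the 10 in each: Itgav, Tgfbr3, Acvr1b, Smad1, Foxh1 and Nedd4l. The same overlap was not counted over all genes, so this number has no background. Genes with more regions, such as Nedd4l, also had more chances of a call in both. Among the DMRs of these 6 genes, Smad1, a BMP-branch SMAD, held the largest losses, at different intronic regions in the cell types. In CD11b+ cells it was -46.5 points (84.3% to 37.8%), at chr8:79382577-79383100. In CD4+ cells it was -48.5 points (81.5% to 33.0%), at chr8:79384679-79385203. At Itgav, an integrin subunit that helps to release active TGF-beta, the same intronic region went from 54.2% to 21.1% in CD11b+ and from 83.2% to 43.9% in CD4+ cells. Acvr1b, an activin receptor, Tgfbr3, the coreceptor betaglycan, Foxh1, a DNA-binding SMAD partner, and Nedd4l, a ubiquitin ligase, had largest differences of -32.9, -35.5, -32.6 and -34.5 points in CD11b+ cells and of -34.0, -37.8, -37.7 and -25.4 points in CD4+ cells. The regions with these differences overlapped between the cell types at Acvr1b and Foxh1, and lay apart at Tgfbr3 and Nedd4l. DMRs in CD11b+ cells alone were called at the ligand gene Tgfb3 (-40.6 points), the receptor gene Acvr1 (-43.1), the repressor gene Tgif1 (-37.3) and the target gene Id3 (-27.8). Those of Tgif1 and Id3 lay within 1 kb of a start. In CD4+ cells alone DMRs were called at Ltbp3 (-43.1, within 1 kb of a start), which anchors latent TGF-beta, and at the phosphatase gene Ppm1a (-37.1). They were also called there at Itgae (-25.8), which encodes the CD103 integrin of T cells, and at Junb (-27.5). Junb also held the single hypermethylated DMR of the 56 further genes, in CD11b+ cells. That was 1 of 589 regions with more than 10 cytosines, against 0.0302% of all such regions. A call in 1 cell type alone is not a tested difference between cell types.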

How the data were processed

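WGBS libraries of 4 groups (2 cell types by 2 genotypes, 4 mice each) were mapped by the authors to mm10 with BISCUIT, and regions were compared between genotypes with metilene. Versions, metilene parameters and a coverage minimum are not given in the sources used here. Deposited tables without a header hold, per region, the authors' mean methylation in percent for each genotype, a count of CpGs, a q-value and p-values of that comparison. The authors' q-value served only as the region caller's threshold, and their other p-values and difference column were not used. Columns were identified from metilene's output order and their values; the first mean was read as WT, the more methylated genotype in the study. There were 0 columns of per-mouse values and the tables give no depth per region, so only authors' means are printed and the precision of each is unknown.

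Starts counted from 0 and were raised by 1. The listed count never exceeded the CpG cytosines of both strands (100.0% of regions), and exceeded the CpG dinucleotides in 92.0% (CD11b+) and 95.8% (CD4+). Genes, exons and starts came from GENCODE M21; intron numbers are those of the principal transcript. Sequence and CpG counts came from RefSeq's GRCm38.p6. Medians, counts and overlaps were computed with python 3.11.15, pandas 2.3.3, numpy 2.4.6, scipy 1.17.1, pysam 0.24.0 and samtools 1.23.1, and plotted with matplotlib 3.10.9. The procedures were tested on simulated data.

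All 10 genes were named. Within a gene, the regions named were DMRs, the largest loss, the highest difference and those within 1 kb of its principal start, where they bear on the account, and a few others chosen after their values were seen. Genes of the further list with a DMR were named. The genes, lists and criteria were chosen with earlier results of these data known. Alternatives covered the gene window, the q-value, difference and CpG thresholds, weighting by CpGs, the overlap that counts as shared, and leaving out the gene with the most regions.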

Additional observations from a re-analysis of the deposited data

How the results depend on the processing

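Most values kept their direction and size. Of the comparisons under another gene window, threshold, weighting or overlap, 25 stayed close and 12 moved. Dropping the q-value threshold raised the hypomethylated regions counted at the 10 genes from 4 to 31 in CD11b+ cells and from 4 to 23 in CD4+ cells. The same count over all listed regions was not made, so these numbers have no background. With the q-value kept, asking for more than 20 CpG cytosines left 2 hypomethylated DMRs in CD11b+ cells. A difference above 30 points left 1 in CD4+ cells. The median difference in CD11b+ cells, -10.4 points, became -12.2 as a mean weighted by CpGs, -13.5 with more than 20 cytosines and -13.6 over regions that overlap the other cell type by at least 50%. In CD4+ cells, -8.81 points became -11.1, -15.0 and -12.5. With more than 20 cytosines the share of regions lower in R878H/+ mice moved from 96.9% to 88.2% in CD11b+ cells and from 96.4% to 100% in CD4+ cells. In the same setting the Ski median in CD11b+ cells turned from -7.55 to +19.95 points, a value that rests only on the exon 1 regions and the intron 1 DMR. Single gene medians reversed 1 time, moved beyond the 95% interval over their regions 7 times and stayed within it 22 times, among them that of Tgfb1 in CD11b+ cells, which went from -10.8 to -5.69 points over the gene body alone. Tgfbr1 has no CD11b+ region within its gene body, so that setting gave no value. Leaving out mice was not possible, and no alternative touches the mean of a group. No paired analysis was possible because the tables hold no value per mouse. What limits every value is that the tables hold neither the depth of a region nor the spread between the 4 mice.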
